A study of Mus musculus with 10 samples.

Results

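The comparison described here set 2 libraries of newly made RNA collected 1 h after the start of SOX2 depletion against 2 libraries collected after 0.5 h, and asked which transcripts kept falling between these times. SOX2 is a DNA-binding factor of the HMG-box family that holds mouse embryonic stem cells in the pluripotent state, often on the same sites as OCT4 (Pou5f1). Fused to the FKBP degron tag, it is destroyed within a short time once the small molecule dTAG-13 is added. In TT-seq, RNA made during a brief pulse of 4-thiouridine is fragmented and purified, so that the fragments report transcription along a gene during the pulse rather than the store of mature RNA. When a promoter falls silent, polymerases already on the gene run on to its end, and a long gene therefore loses its nascent RNA later than a short one. The members were all transcribed units (TUs, continuous stretches of transcription that the study's authors defined on each strand) with more than 10 fragments in at least 2 of the 10 libraries. Of 40779 TUs 28459 met this, and 14997 of these bear a gene symbol. The 12320 that did not held 0.316% of the fragments.

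The cells were E14 mouse embryonic stem cells (E14Tg2A, 129/Ola, with IB10 given in the study's methods for the SOX2 line), picked as clonal lines, in which both Sox2 alleles carry the FKBP tag. They were grown without serum in medium with 2i and LIF, and every group received a pulse of 2 mM 4-thiouridine for 10 min. The control group (NT) received DMSO, and the other groups received 500 nM dTAG-13 for 0.5, 1, 2 or 6 h, times that are written as hours post depletion (hpd). Each group had 2 libraries, and since no label says that these came from separate cultures, the p-values measure only the spread between these libraries, which may be technical. Cells without the tag that received dTAG-13 were not analysed here, so that effects of dTAG-13 other than the loss of SOX2 cannot be told apart from it. The libraries at 0.5 hpd held 25854106 and 11131490 fragments and those at 1 hpd 16437033 and 17704268. The embryonic stem cell markers Pou5f1, Nanog, Sox2, Esrrb, Zfp42, Dppa5a and Tdgf1 were all measured, with a summed level of 3050 to 3320 CPM (fragments of a TU scaled to a common library total) at 0.5 hpd and 2930 to 3230 at 1 hpd. The summed markers of primitive endoderm, trophoblast, primed epiblast, mesendoderm and fibroblasts lay between 0.624 and 14.1 CPM in these 4 libraries, and the neural markers, through Tubb3 and Pax6 with Sox1 and Neurog2 not in the table, between 27.8 and 33.3. None of these marker genes passed the test between 0.5 and 1 hpd. The tag acts on the protein, so the Sox2 TU is not a check of the depletion, and its level was 243 and 283 CPM (NT), 248 and 275 (0.5 hpd) and 229 and 255 (1 hpd) (log2 fold change -0.11 ± 0.11 (SE), adjusted p = 0.98).

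The 5′ ends of a few falling TUs are shown first, because SOX2 acts through short DNA motifs. Each window covers 250 bases before and 50 after the 5′ end of the TU in build mm10 (GRCm38), 5′ to 3′ on the strand of the TU, and capitals mark the core SOX motif (ACAAAG or ACAATG) and the octamer bound by OCT4 (ATGCAAAT), both searched on both strands. Pipox is shown for its 2 SOX motifs and its octamer, transcribed-unit_5226 for a single SOX motif at the TU with one of the steepest falls, and Klf2 as a known gene of the pluripotency network in which neither motif lay in the window.
Pipox (chr11:77893779-77894078, minus strand): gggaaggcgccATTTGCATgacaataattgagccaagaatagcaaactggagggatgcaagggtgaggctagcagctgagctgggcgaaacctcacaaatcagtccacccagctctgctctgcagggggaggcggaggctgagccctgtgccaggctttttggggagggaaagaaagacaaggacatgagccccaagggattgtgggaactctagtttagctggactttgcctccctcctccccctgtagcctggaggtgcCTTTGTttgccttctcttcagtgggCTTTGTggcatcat
transcribed-unit_5226 (chr2:160656209-160656508, minus strand): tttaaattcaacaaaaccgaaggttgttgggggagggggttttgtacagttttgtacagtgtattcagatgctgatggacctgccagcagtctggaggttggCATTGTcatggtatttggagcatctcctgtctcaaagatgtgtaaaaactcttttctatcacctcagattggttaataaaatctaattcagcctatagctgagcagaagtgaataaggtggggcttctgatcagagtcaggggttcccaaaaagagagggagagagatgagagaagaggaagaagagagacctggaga
Klf2 (chr8:72318699-72318998, plus strand): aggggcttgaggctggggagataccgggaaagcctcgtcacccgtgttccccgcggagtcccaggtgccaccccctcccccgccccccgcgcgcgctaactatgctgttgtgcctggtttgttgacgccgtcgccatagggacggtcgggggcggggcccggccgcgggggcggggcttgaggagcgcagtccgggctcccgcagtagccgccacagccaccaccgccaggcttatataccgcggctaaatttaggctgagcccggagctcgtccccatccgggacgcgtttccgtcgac
A SOX motif was present in the windows of 11 of the 28 TUs that fell between 0.5 and 1 hpd (39.3%), in those of 37.1% of the 1223 TUs that were lower at 2 and 6 hpd, and in those of 26.4% of all tested TUs. The octamer lay in 1 of the 28 windows, that of Pipox, and in 2.22% of all of them. In RefSeq's promoter table of the same build, 12 of the 17 gene symbols that fell were found, with 25 promoters, of which 7 held a SOX motif (28.0%, against 28.6% of all 32851 promoters). Some symbols have several promoters, and the 7 belonged to 5 of the 12 symbols, against 8572 of 27025 symbols in all. In the Pipox window the octamer is followed after 1 base by ACAA. This joint arrangement, searched on both strands after the window had been read, occurred in 8 of the 28459 windows, 4 of which belonged to TUs lower at 2 and 6 hpd: Pipox, Shf, LOC108168245 and transcribed-unit_16863. A match describes these letters only, and the distant enhancers at which SOX2 is also known to act lie outside such windows.

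Of the 28459 TUs, 31 passed the test between 0.5 and 1 hpd (0.109%; edgeR quasi-likelihood F-test, adjusted p under 0.05, Benjamini-Hochberg over all tested TUs). The level fell in 28 of them (0.0984%) and rose in 3 (0.0105%). Of the 28 that fell, 17 bore a gene symbol and 11 were antisense or extragenic TUs without one. At an unadjusted p under 0.05 the counts were 1006 lower and 515 higher (5.34% in all). In bulk RNA, fewer cells that transcribe a TU and less transcription per cell cannot be told apart. The level of the 28 relative to NT had a median of 53% after 0.5 h (16.3% to 87.7%), 22.8% after 1 h (3.94% to 48.1%), 15.7% after 2 h and 14.1% after 6 h. Measured against NT, which shares libraries with these comparisons, 21 of the 28 were already lower at 0.5 hpd (background 0.787%), the exceptions being Ttn, 1700019D03Rik, Zfp459, Srrm4os, Pipox, transcribed-unit_36882 and transcribed-unit_33868, and all 28 were lower at each later time (backgrounds of 3.61%, 5.57% and 9.2% for 1, 2 and 6 hpd). From 1 to 2 hpd 5 of the 28 fell again (background 0.197%), and from 2 to 6 hpd 2 did (0.517%). None of them rose in either step (backgrounds 0.0211% and 0.26%). In all 28 both libraries at 1 hpd lay under both at 0.5 hpd (20.2% of all tested TUs), from which nothing is read, since the same libraries chose the 28.

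**Figure D1:**
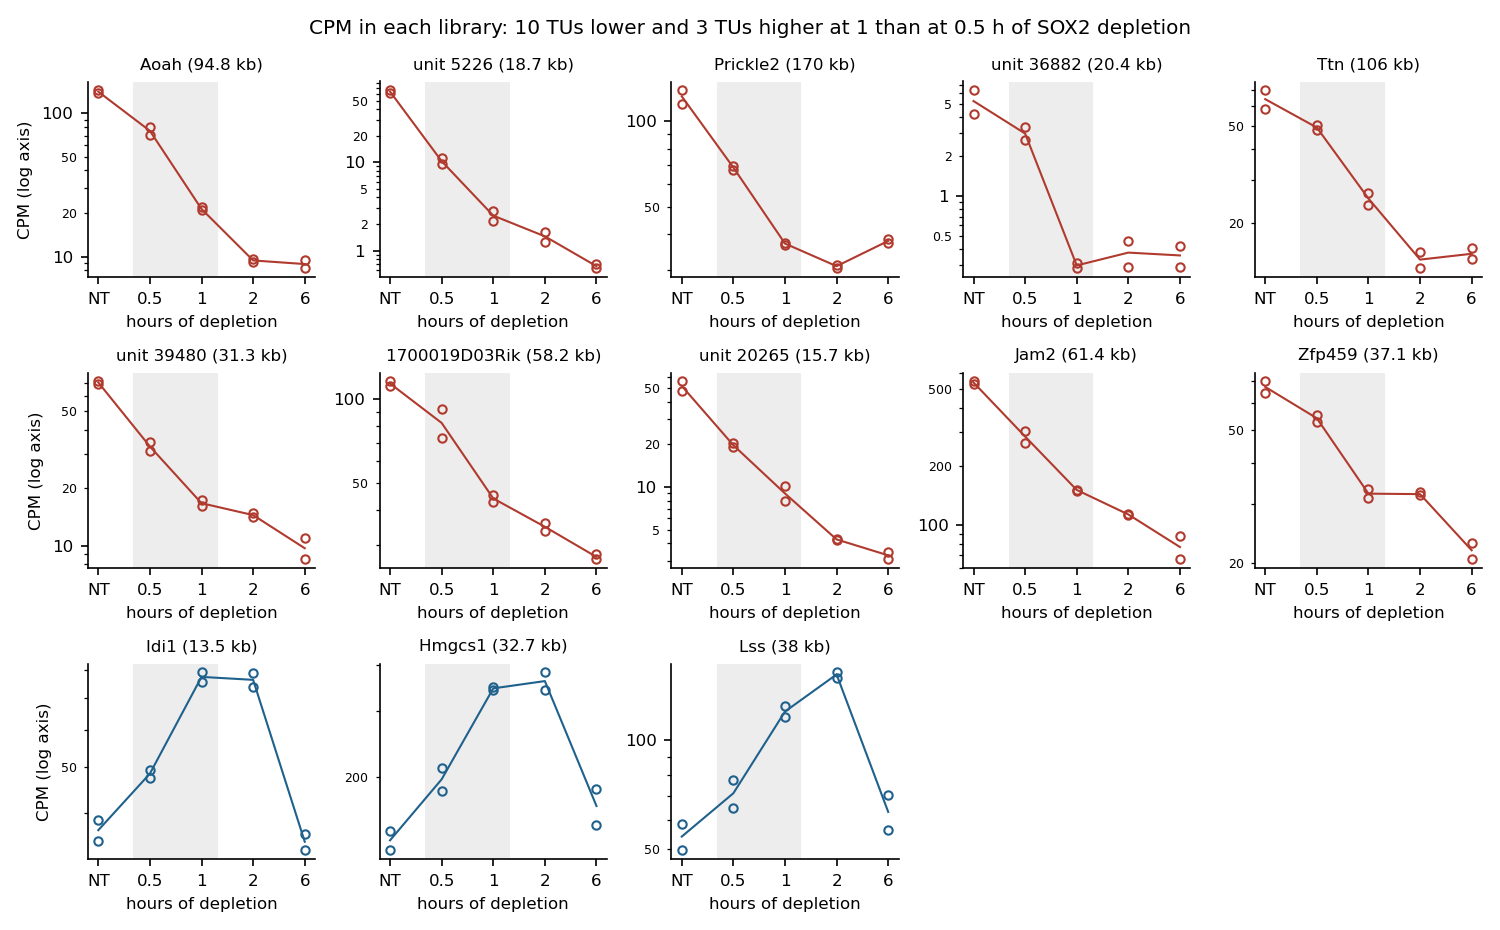
Level in each library (circles, CPM on a log axis that differs between panels) and group mean (line) against hours of SOX2 depletion, for the 10 falling TUs with the smallest p (red) and the 3 that rose (blue); the grey band marks 0.5 and 1 h and NT is the DMSO control. The pairs of circles at 0.5 and 1 h do not overlap in any panel, from which nothing is read, since these libraries chose the TUs. The 3 rising TUs lie lower at 6 than at 1 h.

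The clearest fall was that of Aoah, which encodes acyloxyacyl hydrolase, a lipase that removes acyl chains from bacterial lipopolysaccharide (transcribed-unit_28813, chr13:20936410-21031234, plus strand, 94.8 kb). Its level was 140 and 145 CPM (NT), 80.4 and 70.9 (0.5 hpd), 22.1 and 21 (1 hpd), 9.61 and 9.18 (2 hpd) and 8.29 and 9.43 (6 hpd). It thus stood near 53.2% of NT at 0.5 hpd and near 15.1% at 1 hpd, a 3.52-fold drop between these times (log2 fold change -1.82 ± 0.11 (SE), adjusted p = 1.6e-06), and it fell once more between 1 and 2 hpd (-1.19 ± 0.12 on the log2 scale, adjusted p = 6e-04). The TU begins 37.5 kb downstream of the nearest RefSeq transcript start of the gene, and transcription from the part of the gene ahead of it is not included.

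Second by p was transcribed-unit_5226 (chr2:160637513-160656258, minus strand, 18.7 kb), an unannotated RNA that runs antisense to the start of Top1, the gene of DNA topoisomerase I. Its level was 65.2 and 61.3 CPM (NT), 11.2 and 9.49 (0.5 hpd), 2.82 and 2.16 (1 hpd), 1.26 and 1.64 (2 hpd) and 0.632 and 0.699 (6 hpd). The fall was 4.2-fold (log2 fold change -2.07 ± 0.18 (SE), adjusted p = 0.00012), and it came after a fall to 16.3% of NT within the first 0.5 h. The Top1 TU on the other strand, which overlaps it over 10.37 kb, changed by 0.26 ± 0.15 on the log2 scale (adjusted p = 0.98).

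Prickle2 encodes a protein of the planar cell polarity pathway, and its TU was the longest that fell (chr6:92364601-92534830, minus strand, 170 kb). Its level was 115 and 128 CPM (NT), 67.4 and 69.7 (0.5 hpd), 36.8 and 37.3 (1 hpd), 31.3 and 30.4 (2 hpd) and 37.3 and 38.6 (6 hpd) (log2 fold change -0.89 ± 0.1 (SE), adjusted p = 0.0024). Most of its loss had taken place by 1 hpd, and the libraries at 2 and 6 hpd lay close to those at 1 hpd. Ttn, the gene of the sarcomere protein titin, contributed a TU of 106 kb that starts 175 kb past the nearest RefSeq transcript start of the gene (chr2:76702086-76808040, minus strand). Its level was 58.6 and 69.6 CPM (NT), 50.4 and 47.8 (0.5 hpd), 26.6 and 23.7 (1 hpd), 15.3 and 13.1 (2 hpd) and 15.8 and 14.3 (6 hpd) (log2 fold change -0.97 ± 0.12 (SE), adjusted p = 0.0052). At 0.5 hpd it had not passed the test against NT (-0.38 ± 0.12, adjusted p = 0.17), and it fell again between 1 and 2 hpd (-0.82 ± 0.13, adjusted p = 0.017).

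Jam2 encodes a junctional adhesion molecule and was the most abundant TU that fell, with a mean of 3790 fragments per library (chr16:84768384-84829797, plus strand, 61.4 kb). Its level was 531 and 545 CPM (NT), 304 and 263 (0.5 hpd), 151 and 150 (1 hpd), 113 and 112 (2 hpd) and 66.6 and 87.1 (6 hpd) (log2 fold change -0.91 ± 0.12 (SE), adjusted p = 0.007). Zfp459 encodes a zinc-finger protein (chr13:67391299-67428411, minus strand, 37.1 kb). The TU also runs over 8.62 kb of Zfp429 on the same strand, so its level is not that of Zfp459 alone, and it was 64.5 and 69.8 CPM (NT), 55.3 and 53 (0.5 hpd), 33.4 and 31.3 (1 hpd), 31.9 and 32.6 (2 hpd) and 20.6 and 23.1 (6 hpd) (log2 fold change -0.75 ± 0.11 (SE), adjusted p = 0.011). Its mean was at 48.1% of NT at 1 hpd and at 47.9% at 2 hpd, and it fell again from 2 to 6 hpd (-0.56, adjusted p = 0.026). The uncharacterised gene 1700019D03Rik gave 112 and 116 CPM (NT), 92.2 and 72.4 (0.5 hpd), 45.2 and 42.9 (1 hpd), 36.1 and 33.7 (2 hpd) and 26.7 and 27.8 (6 hpd) (log2 fold change -0.91 ± 0.12 (SE), adjusted p = 0.0052; 58.2 kb). The libraries of this gene at 0.5 hpd differed more from each other than those at any other time.

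Of the unannotated TUs among the 10 with the smallest p, transcribed-unit_36882 showed the steepest fall of all 28, from few fragments (chr17:79621090-79641522, minus strand, 20.4 kb, opposite to Rmdn2). Its level was 4.17 and 6.32 CPM (NT), 3.32 and 2.65 (0.5 hpd), 0.314 and 0.285 (1 hpd), 0.455 and 0.292 (2 hpd) and 0.421 and 0.291 (6 hpd) (log2 fold change -3.32 ± 0.4 (SE), adjusted p = 0.004), with a mean of 30 fragments per library. A TU opposite to Suv39h1, the gene of a histone H3 lysine methyltransferase, gave 71.2 and 69.3 CPM (NT), 34.6 and 30.8 (0.5 hpd), 16 and 17.3 (1 hpd), 14.1 and 14.7 (2 hpd) and 8.5 and 10.9 (6 hpd) (transcribed-unit_39480, chrX:8048533-8079798, plus strand, 31.3 kb; log2 fold change -0.98 ± 0.13 (SE), adjusted p = 0.0052). A TU opposite to the start of Hcrtr2, the gene of an orexin receptor, gave 47.5 and 55.6 CPM (NT), 20.4 and 19 (0.5 hpd), 7.9 and 10.1 (1 hpd), 4.25 and 4.27 (2 hpd) and 3.09 and 3.49 (6 hpd) (transcribed-unit_20265, chr9:76312471-76328183, plus strand, 15.7 kb; log2 fold change -1.13 ± 0.15 (SE), adjusted p = 0.0052). In each of these 3 TUs both libraries at 0.5 hpd lay under both of NT. Nothing is read from the gap between the libraries at 0.5 and 1 hpd, since these chose the TUs.

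The other 11 falling genes with a symbol included 3 with a known part in the pluripotent state. Klf2, a Krüppel-like transcription factor of the naive network, had lost most of its nascent RNA within 0.5 h and still fell afterwards (chr8:72318948-72329182, plus strand, 10.2 kb). Its level was 76.9 and 79.1 CPM (NT), 13.5 and 12.3 (0.5 hpd), 6.46 and 7.29 (1 hpd), 5.26 and 6.84 (2 hpd) and 6.67 and 6.35 (6 hpd) (log2 fold change -0.92 ± 0.15 (SE), adjusted p = 0.022). Klf2 was the shortest of the 28, and it was at 8.81% of NT at 1 hpd and at 7.76% at 2 hpd. Platr11, a non-coding RNA named for its association with pluripotency, gave 17 and 19.1 CPM (NT), 3.59 and 3.68 (0.5 hpd), 1.51 and 1.37 (1 hpd), 0.859 and 0.994 (2 hpd) and 0.492 and 0.349 (6 hpd) (chr9:118392979-118406147, minus strand, 13.2 kb; log2 fold change -1.33 ± 0.23 (SE), adjusted p = 0.04). Lifr, the receptor of LIF, which is a component of the culture medium, gave 199 and 180 CPM (NT), 133 and 104 (0.5 hpd), 69.6 and 63.9 (1 hpd), 60.1 and 51.9 (2 hpd) and 68.6 and 73.2 (6 hpd) (chr15:7129601-7209018, plus strand, 79.4 kb; log2 fold change -0.83 ± 0.13 (SE), adjusted p = 0.017). Lifr at 1 hpd was at 35.3% of NT and at 6 hpd at 37.5%.

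The other 8 changed by -0.73 to -1.21 on the log2 scale. Cdc42ep3, an effector of the small GTPase CDC42, fell most, from 22 and 17.8 CPM to 9.35 and 8.09 (log2 fold change -1.21 ± 0.17 (SE), adjusted p = 0.011). Upp1, uridine phosphorylase, fell least, from 112 and 91.6 CPM to 65.6 and 57.5 (log2 fold change -0.73 ± 0.12 (SE), adjusted p = 0.036). Pipox, an oxidase of pipecolic acid and sarcosine, fell from 18.5 and 16 CPM to 9.97 and 9.05 (log2 fold change -0.87 ± 0.15 (SE), adjusted p = 0.036). Among the rest, Mroh4, 2500002B13Rik and Rsf1os1 had reached 36.6%, 31.4% and 40.9% of NT at 0.5 hpd and fell to 17.8%, 15.8% and 19.3%. Gm36038 and Srrm4os were still at 67.5% and 79% at 0.5 hpd and fell to 40.1% and 46%, and both fell again between 1 and 2 hpd (adjusted p = 0.032 and 0.047). The other 7 TUs without a symbol had log2 fold changes from -0.94 to -2.83, and the largest of these, transcribed-unit_2880, rested on a mean of 21.8 fragments per library, the fewest of the 28.

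Which of these TUs passed depended strongly on single libraries. The number that fell was 3 or 21 without the first or the second library of 0.5 hpd and 2 or 3 without the first or the second of 1 hpd, and none rose in these 4 refits (edgeR, with 856 to 2146 TUs of either direction at an unadjusted p under 0.05). In these 4 refits 1 group held a single library, which was assumed to vary like the other groups. Without either NT library it was 18, and without the first or the second of 2 hpd it was 50 or 45. Aoah and transcribed-unit_5226 alone passed in all 10 refits that left out 1 library (6 hpd included), while all 28 kept a log2 fold change below 0 and all 3 that rose kept one above 0. Just inside the threshold lay Platr11, transcribed-unit_33868 and Rsf1os1 (adjusted p = 0.04 to 0.047), and just outside it Aacs (0.61), transcribed-unit_4842 (-0.76), Gad2 (-1.17), transcribed-unit_6508 (-1.16) and Gm41430 (-1.29), with adjusted p from 0.053 to 0.058.

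The 28 falling TUs had a median length of 28.1 kb (quartiles 19.6 and 48.9 kb, range 10.2 to 170 kb), against 12.6 kb for all tested TUs and 22.2 kb for the 19296 tested TUs with at least as many fragments as the sparsest of the 28. The median rested on which TUs passed: it was 50.1 kb for the 42 that fell with total counts alone, 94.8 kb for the 3 left without the first library of 0.5 hpd, and 56.8 and 18.7 kb for the 2 and 3 left without the first and the second of 1 hpd. Those of the 28 with a symbol had a median of 42.5 kb and those without one of 19.8 kb. None of the 12459 tested TUs under 10 kb passed, while 15 of 8497 from 10 to 30 kb fell (0.177%), 11 of 5842 from 30 to 100 kb (0.188%), 2 of 1512 from 100 to 300 kb (0.132%) and 0 of 149 of 300 kb or more. At an unadjusted p under 0.05 in edgeR, 332 of the TUs under 10 kb were lower and 83 higher, and at 300 kb or more 2 were lower and 4 higher; DESeq2 called none in either class. The TUs under 10 kb had a median of 15.3 fragments per library against 816 from 30 to 100 kb, and where the mean was 50 fragments or more, 0 of 1909 under 10 kb and 13 of 5830 from 10 to 30 kb fell.

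**Figure D2:**
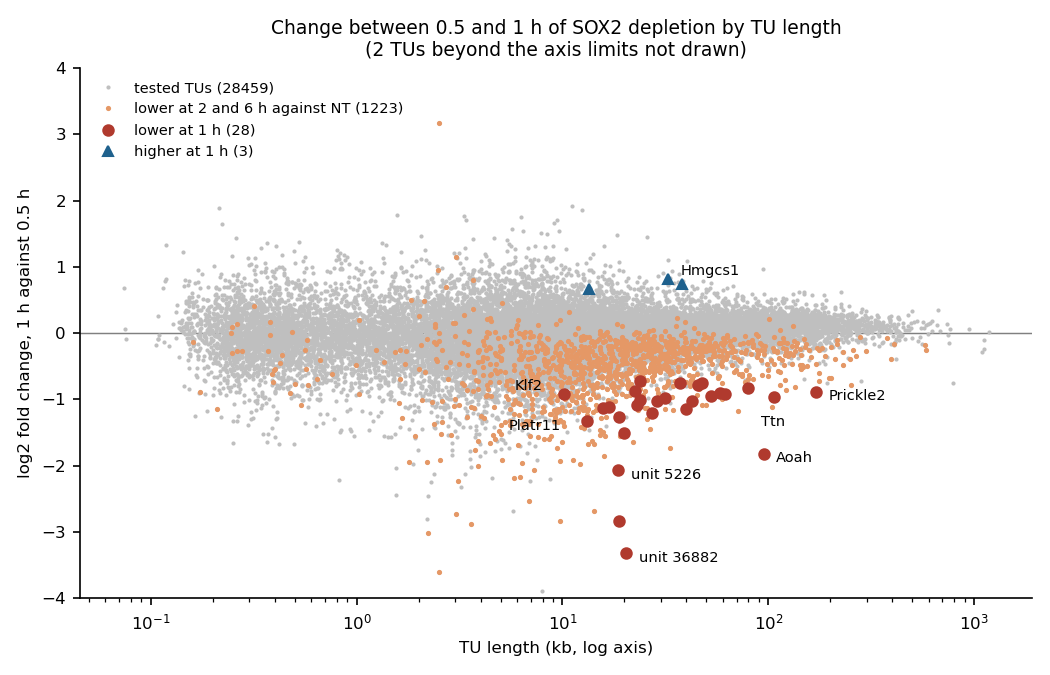
Log2 fold change at 1 against 0.5 h of depletion for every tested TU (grey) by TU length (log axis), with the TUs lower at 2 and 6 h in orange, the 28 that fell in red and the 3 that rose in blue. The red points lie between 10.2 and 170 kb, and the spread of the grey points narrows with length, as fragments per TU increase.

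Over all tested TUs, whatever their response to SOX2, the median log2 fold change between 0.5 and 1 hpd was -0.01. It was -0.08 under 10 kb, -0.04 from 10 to 30 kb, 0.06 from 30 to 100 kb, 0.11 from 100 to 300 kb and 0.08 at 300 kb or more. In each class the replicates at 0.5 hpd differed by more than this (replicate 1 minus replicate 2, from -0.172 under 10 kb to 0.197 at 300 kb or more), while those at 1 hpd differed by more only under 10 kb (-0.0906) and by less in the longer classes (-0.0131, 0.0492, 0.0665 and 0.0369). The medians of the 4 pairings of a 1 hpd with a 0.5 hpd library lay on both sides of 0 in every class except 10 to 30 kb, where they ran from -0.081 to -0.00377.

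To follow length among TUs that respond to the depletion, those lower than NT at both 2 and 6 hpd were chosen in a fit of the NT, 2 and 6 hpd libraries alone, so that none of the 4 libraries compared here took part in the choice. There were 1223 of them (4.3%), and all 28 TUs that fell between 0.5 and 1 hpd were among them, 2.29% of the 1223. Their median log2 fold change between 0.5 and 1 hpd was -0.42, and 95.2% of them lay below 0, against 51.9% of all tested TUs. The median was -0.57 under 10 kb (n = 370), -0.46 from 10 to 30 kb (n = 497), -0.31 from 30 to 100 kb (n = 277), -0.30 from 100 to 300 kb (n = 74) and -0.18 at 300 kb or more (n = 5). In all 5 classes the medians of the 4 library pairings lay below 0, for instance from -0.72 to -0.31 under 10 kb and from -0.36 to -0.26 from 100 to 300 kb. The ranges of the classes overlap. With TUs chosen at 6 hpd alone the medians were -0.28 under 10 kb and -0.314 from 10 to 30 kb, so that the shortest class was no longer the lowest. At 300 kb or more the median moved to -0.0504 without the first and to -0.273 without the second library of 0.5 hpd. Among those of the 1223 with a mean of at least 50 fragments the medians were -0.35, -0.36, -0.30, -0.30 and -0.18 in the same order.

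Between NT and 0.5 hpd the same classes had medians of -0.97, -0.57, -0.39, -0.24 and -0.10 from the shortest to the longest, and between 1 and 2 hpd of -0.43, -0.23, -0.21, -0.34 and -0.56. For these 2 steps the NT and 2 hpd libraries also chose the TUs, so the values are given as a description and are not a like comparison with the step from 0.5 to 1 hpd. Among those with a mean of at least 50 fragments the first step had medians of -0.459, -0.494, -0.383, -0.245 and -0.0977, and the shortest class no longer had the lowest, and from 1 to 2 hpd the median under 10 kb was -0.249. Over the 1223 TUs Spearman's rho between length and log2 fold change was 0.222 for the step from 0.5 to 1 hpd and 0.495 for that from NT to 0.5 hpd, against 0.184 and 0.234 over all tested TUs. Length also went with fragments per TU in these TUs (rho 0.761), and with a mean of at least 50 fragments (n = 732) the values were 0.109 and 0.24. No test was made of these values, since TUs are not replicates of a condition.

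**Figure D3:**
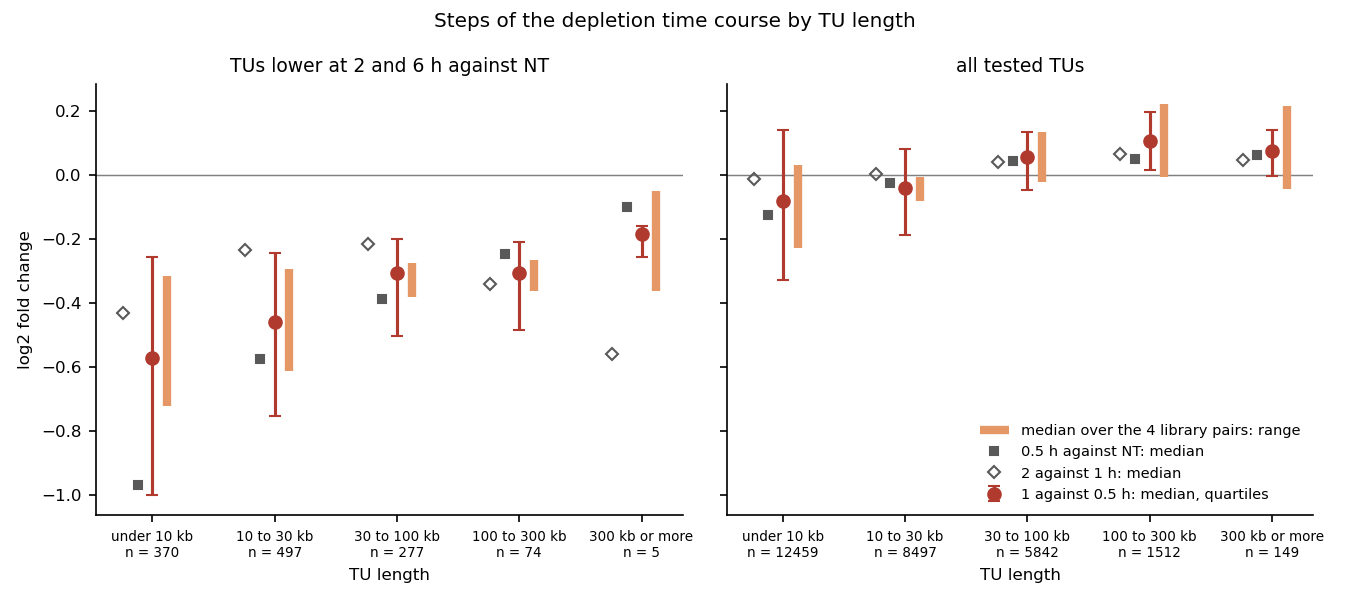
Median log2 fold change by class of TU length for the 1223 TUs lower at 2 and 6 h (left) and all tested TUs (right), with quartiles for 1 against 0.5 h in red, the range of the medians of its 4 library pairings in orange, and the medians of 0.5 h against NT (squares) and of 2 against 1 h (diamonds). On the left the red medians lie between -0.57 and -0.18 and the squares between -0.97 and -0.10; on the right the red medians lie within -0.08 to 0.11.

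In each length class the TUs with a symbol and the most negative log2 fold changes among these 1223 were the following. At 300 kb or more, Slit3, which encodes a secreted guidance ligand (580 kb), gave 53.1 and 53.4 CPM (NT), 52.6 and 54.6 (0.5 hpd), 43.2 and 46.6 (1 hpd), 39.7 and 39.2 (2 hpd) and 24.2 and 28.4 (6 hpd) (log2 fold change -0.25 ± 0.11 (SE), adjusted p = 0.85). Its libraries at 0.5 hpd lay at the level of NT and those at 1 hpd somewhat under it. Sgcz, a sarcoglycan gene of 394 kb, had a log2 fold change of -0.39 ± 0.17 and Ctnnd2, a delta-catenin gene of 578 kb, one of -0.18 ± 0.16 (adjusted p = 0.87 and 0.98), after values near that of NT at 0.5 hpd (98.9% and 92.8%). From 100 to 300 kb they included Ttn and Prickle2, and from 30 to 100 kb they were Aoah, Gm36540 (-1.73 ± 0.43, adjusted p = 0.22) and Gad2, which encodes a glutamate decarboxylase (-1.17 ± 0.22, adjusted p = 0.057). Below 30 kb the lowest values came from few fragments, at a mean of 3.5 to 24 per library. From 10 to 30 kb they were Gm5089 (-2.68 ± 0.53), Cabs1 (-1.91 ± 0.59) and Gm39454 (-1.63 ± 0.45), and under 10 kb Gm33006 (-2.17 ± 0.56), Gm2240 (-1.93 ± 0.68) and 4930533P14Rik, which had 0 fragments in both libraries at 1 hpd and for which no fold is given. None of these 6 passed the test (adjusted p = 0.088 to 0.68).

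A TU's own length is not the distance from its promoter where a TU starts inside a gene or follows another TU. Of the 17 falling TUs with a symbol, 10 began within 5 kb of a RefSeq transcript start of their gene in build mm10, against 86.3% of the 13841 tested TUs of a single gene that could be matched, with Prickle2 at 0.031 kb, Lifr at 0.029 kb and 2500002B13Rik at 0.081 kb past one. A further 3 began more than 5 kb past the nearest such start (Ttn by 175 kb, Platr11 by 41.0 kb and Aoah by 37.5 kb; 5.53% of all). The other 4 began more than 5 kb ahead of it (Mroh4 by 23.2 kb, Zfp459 by 6.99 kb, Jam2 by 5.74 kb and Srrm4os by 5.44 kb; 8.18% of all), although the gene of Zfp459 has a further start upstream of the TU.

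A row of 5 neighbouring TUs on the plus strand of chromosome 16, opposite to the immunoglobulin lambda region, showed levels that differed with position at 0.5 and 1 hpd. The row holds 2 of the 28 and was singled out after its values had been seen. Its first TU, transcribed-unit_33864, was at 28.9% of NT at 0.5 hpd and at 14.5% at 1 hpd. The second, transcribed-unit_33865, begins 20.2 kb further on and gave 9.49 and 9.52 CPM (NT), 5.74 and 4.19 (0.5 hpd) and 1.94 and 1.65 (1 hpd), or 52.2% and 18.9% of NT (log2 fold change -1.50 ± 0.24 (SE), adjusted p = 0.022). Gm41430, 47.1 kb from the first start, was at 67.1% and 28.1%. The fourth, transcribed-unit_33868 at 85 kb, gave 6.46 and 6.69 CPM (NT), 6.48 and 5.05 (0.5 hpd) and 2.57 and 2.28 (1 hpd), or 87.7% and 36.8% (log2 fold change -1.27 ± 0.22 (SE), adjusted p = 0.04). The last, transcribed-unit_33869 at 110 kb, was at 127% of NT at 0.5 hpd and at 71.2% at 1 hpd, and it fell between 1 and 2 hpd (-2.17 ± 0.37, adjusted p = 0.028). At 2 hpd all 5 lay between 13.6% and 16.2% of NT.

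**Figure D4:**
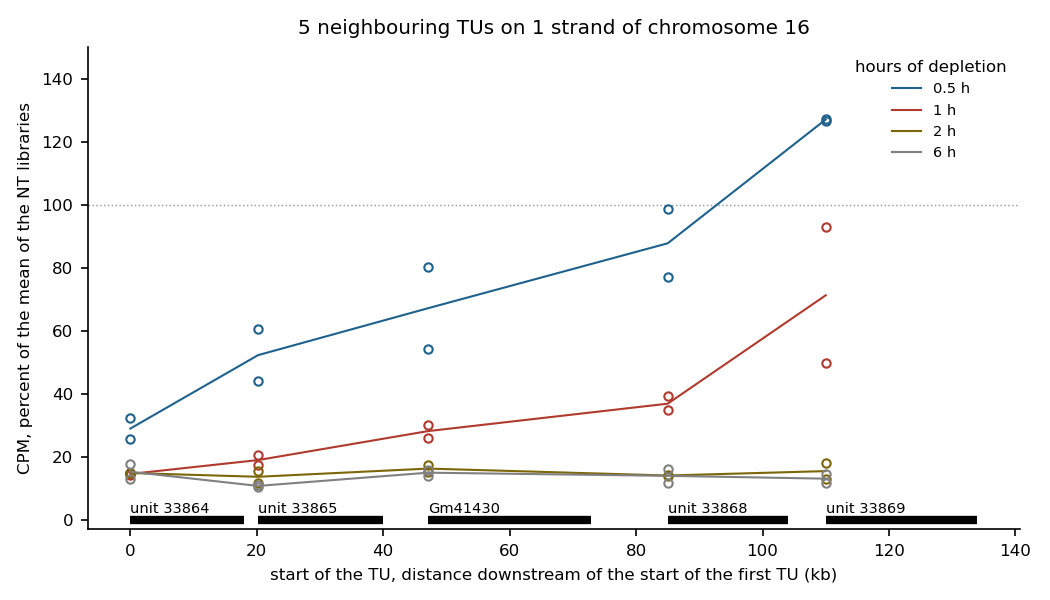
Level relative to the mean of the NT libraries (percent; circles are libraries, lines join group means) for 5 neighbouring TUs on the plus strand of chromosome 16, by the distance of each TU's start from that of the first (kb); black bars show the extent of the TUs. The level at 0.5 h climbs from 28.9% to 127% along the row and that at 1 h from 14.5% to 71.2%, while at 2 and 6 h all 5 lie at 10.7% to 16.2%.

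Other rows were then sought by rule, as 3 or more tested TUs in direct succession on 1 strand, no more than 20 kb apart and all lower at 2 and 6 hpd. There were 15 rows with 48 TUs, this one included. Some rows hold separate annotated genes, such as Dstyk, Rbbp5 and Tmem81, so the first and last TU need not share a promoter. The NT libraries also chose these TUs, so the values from NT to 0.5 hpd are given as a description. In 12 of the 15 the first TU had the more negative log2 fold change of the first and last TUs from NT to 0.5 hpd (medians -0.945 and -0.34), and in 9 of the 15 the last had the more negative one from 0.5 to 1 hpd (medians -0.333 and -0.569). The chromosome 16 row was not among these 9, with -1.02 in its first and -0.84 in its last TU. Among the 98 rows of 2 or more TUs these counts were 64 and 44, and the medians of the later step were -0.508 for the first and -0.37 for the last, so that the order in the later step was not shared by the short rows. Srrm4os and Gm36038 lay in such rows. Ahead of Gm36038, which went from 67.5% to 40.1%, the first TU of its row, Tfap2c, was at 88.1% and 81.2%, and the TU behind it, transcribed-unit_3919, went from 94% to 63.2%, so that Gm36038 in the middle of the row was the lowest at both times. Ahead of Srrm4os the first TU, with a mean of 14.5 fragments, was at 50.5% of NT at 0.5 hpd (adjusted p = 0.3 against NT) and at 51.9% at 1 hpd, and Srrm4os, whose start lies 52.6 kb further on, went from 79% to 46%. In a row on chromosome 9, Gm36540 was at 39.6% and 11.5%, and the last TU, Gm36485, went from 109% to 29.7% (adjusted p = 0.22 and 0.62 in this comparison, hence no call for either), the latter at a mean of 8.1 fragments.

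Many falling TUs overlapped transcription on the other strand, which was counted separately. The host genes opposite to the fallen antisense TUs did not pass the test: Suv39h1 changed by 0.36 ± 0.10 on the log2 scale (adjusted p = 0.33), Rsf1, opposite to Rsf1os1, by 0.21 ± 0.12 (0.98), Srrm4, opposite to Srrm4os, by -0.08 ± 0.18 (0.98), Rbmxl2, opposite to transcribed-unit_17194, by 0.13 ± 0.13 (0.98), and Ak9, opposite to transcribed-unit_23094, by -0.46 ± 0.16 (0.67). Hcrtr2 was measured with a mean of 14.2 fragments and changed by -1.45 ± 0.42 (0.40). Eps15l1, which overlaps the Klf2 TU over 8.54 kb on the other strand, changed by 0.06 ± 0.11 (0.98).

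The 3 TUs that rose all encode enzymes of cholesterol synthesis. Hmgcs1, the synthase of HMG-CoA, gave 143 and 127 CPM (NT), 211 and 183 (0.5 hpd), 350 and 342 (1 hpd), 382 and 342 (2 hpd) and 186 and 148 (6 hpd) (log2 fold change 0.81 ± 0.12 (SE), adjusted p = 0.017; 32.7 kb). Lss, lanosterol synthase, gave 58.6 and 49.6 CPM (NT), 77.8 and 64.7 (0.5 hpd), 124 and 116 (1 hpd), 154 and 149 (2 hpd) and 70.3 and 56.3 (6 hpd) (log2 fold change 0.74 ± 0.13 (SE), adjusted p = 0.036; 38 kb). Idi1, isopentenyl diphosphate isomerase, gave 38.8 and 35 CPM (NT), 49.4 and 47.5 (0.5 hpd), 79.1 and 75.6 (1 hpd), 78.8 and 73.8 (2 hpd) and 36.3 and 33.5 (6 hpd) (log2 fold change 0.67 ± 0.1 (SE), adjusted p = 0.016; 13.5 kb). In all 3 the libraries of 1 and 2 hpd were the highest, and all 3 fell from 2 to 6 hpd (adjusted p = 0.00025 to 0.00056). Of the 20 cholesterol synthesis enzymes tested these 3 passed (15%, against 0.0105% of all tested TUs), 18 had an unadjusted p under 0.05 in the upward direction (1.81% of all), only Ebp lay below 0 (-0.06), and the median log2 fold change was 0.50 against -0.01 for all tested TUs. Of 13 other sterol-responsive genes none passed, with a median of 0.23; the smallest p was that of Insig1, which holds the sterol sensor in the endoplasmic reticulum (0.55 ± 0.12, adjusted p = 0.11). In edgeR 7 of these 13 had an unadjusted p under 0.05, all higher, and DESeq2 called 1 of the 13 and 8 of the 20 enzymes higher (0.0597% of all tested TUs). The call for each of the 3 was lost whichever of the 4 libraries compared was left out.

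Among the 27 pluripotency genes Klf2 alone passed (lower in 0.0984% of all tested TUs), 23 lay below 0 (51.9% of all), and the median was -0.19 (-0.01 for all). In edgeR 5 of the 27 had an unadjusted p under 0.05, all lower (3.53% of all tested TUs were lower by this rule). Sizes near that of Klf2 were seen in Utf1 (-0.81 ± 0.21, adjusted p = 0.28) and Nr0b1, an orphan nuclear receptor (-0.79 ± 0.19, 0.19), and values of -0.57 ± 0.13 (0.17), -0.54 ± 0.38 (0.98) and -0.51 ± 0.11 (0.14) were seen in Fgf4, Lin28a and Prdm14. Fgf4, a growth factor gene with a well-known SOX2 and OCT4 enhancer, gave 137 and 127 CPM (NT), 89.6 and 112 (0.5 hpd), 64.9 and 70.2 (1 hpd), 45.5 and 58.4 (2 hpd) and 47.6 and 51.2 (6 hpd). Both of its libraries at 1 hpd lay under both at 0.5 hpd, as in 20.2% of all tested TUs, and Fgf4 did not pass. Nanog (-0.04 ± 0.11), Pou5f1 (-0.22 ± 0.11), Esrrb (-0.15 ± 0.11) and Zfp42 (0.11 ± 0.12) stayed within 0.22 of 0 on the log2 scale. Of 14 Platr RNAs Platr11 alone passed, 10 lay below 0 and the median was -0.14, against the same shares of all tested TUs, with Platr6 at -0.81 ± 0.19 and Platr10 at -0.59 ± 0.14 (adjusted p = 0.17 and 0.21). By the same unadjusted edgeR rule 5 of the 14 were lower and none higher.

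Of 12 genes of the LIF and STAT3 pathway Lifr alone passed (lower in 0.0984% of all tested TUs) and the median was -0.16 (-0.01 for all). At an unadjusted p under 0.05 in edgeR 3 of the 12 were lower and 1 higher, against 3.53% and 1.81% of all tested TUs. The Lifr co-receptor Il6st changed by -0.25 ± 0.11 and the feedback inhibitor Socs3 by -0.48 ± 0.18, while the signal transducer Stat3 changed by 0.27 ± 0.10 (adjusted p = 0.89, 0.73 and 0.72). The mean level of Il6st was 219 CPM (NT), 154 (0.5 hpd) and 129 (1 hpd), and that of Stat3 was 156, 187 and 226. That of Socs3 was 22.1, 40.6 and 28.8 CPM in the same order, and so lay above NT at both times. None of 8 genes of the FGF and ERK pathway (median -0.14), of 11 of the Nodal and BMP pathway (median -0.12, smallest p Lefty1, -0.95 ± 0.36) or of 9 of the Wnt and TCF pathway (median 0.03, smallest p Nkd1, 0.55 ± 0.22) passed. The 12 housekeeping genes had a median of -0.02, and none of them passed.

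Stress-responsive genes were followed through 3 lists, in which no gene passed. The immediate early genes, which answer growth and stress signals quickly, had a median of 0.00347 over the 11 tested of 17 listed, and their smallest p was that of the transcription factor gene Atf3 (13.2 and 10.7 CPM (NT), 16.9 and 20.2 (0.5 hpd) and 25.8 and 27.7 (1 hpd); log2 fold change 0.54 ± 0.13 (SE), adjusted p = 0.21). The 12 tested targets of NF-kB, of 15 listed, had a median of -0.02 and the smallest p in Tnfaip3 (log2 fold change 0.38 ± 0.38 (SE), adjusted p = 0.98). The 10 heat shock genes had a median of -0.00266 and the smallest p in Hspa1a, an inducible chaperone gene that lay under 1 CPM in all 4 libraries compared (log2 fold change 1.43 ± 0.54 (SE), adjusted p = 0.76). DESeq2 called no gene of these 3 lists, nor of the FGF, Nodal and BMP, Wnt and housekeeping lists. In each of these 7 lists at most 1 gene had an unadjusted p under 0.05 in edgeR, against 5.34% of all tested TUs.

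**Figure D5:**
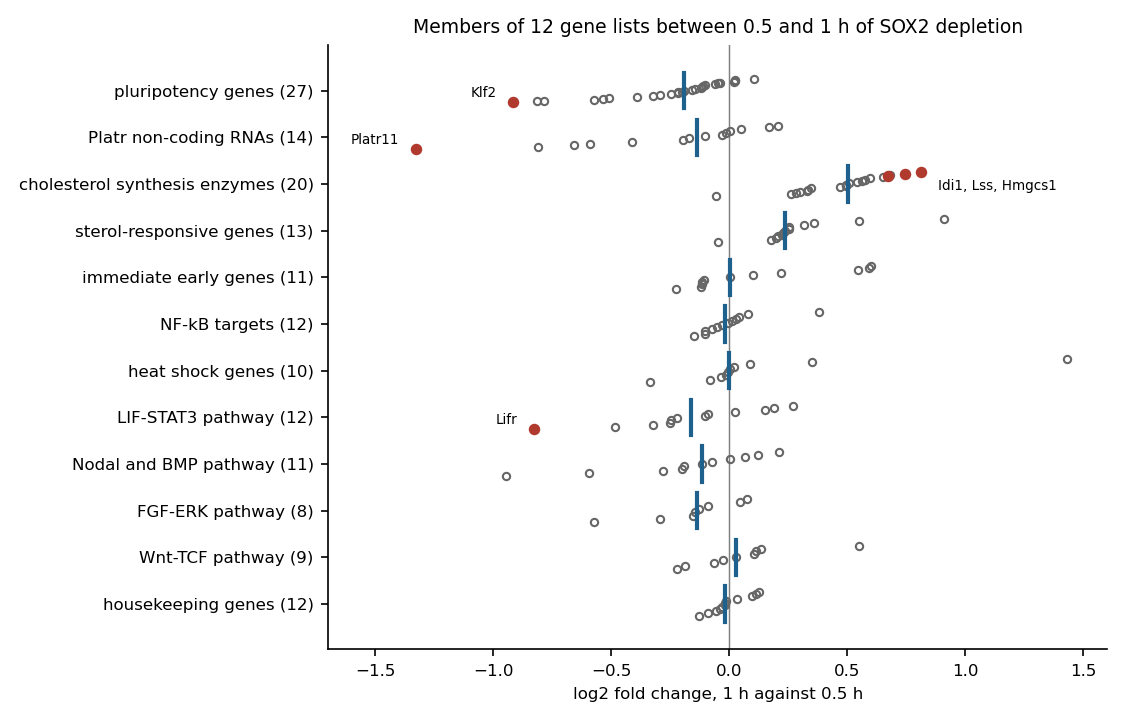
Log2 fold change at 1 against 0.5 h of depletion for each tested member of 12 gene lists (number tested in brackets; Klf4, Gbx2, Bcl3, Tfcp2l1, Fgf4 and Tdgf1 are in more than 1 list), with list medians as blue bars and members that passed the test filled and named. The cholesterol synthesis enzymes have the highest median (0.50) and the pluripotency genes the lowest (-0.19).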

How the data were processed

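TT_chem-seq libraries of 10 samples in 5 groups were used. Per the study's methods, the authors mapped read pairs on mm10 using BWA (0.7.17-r1188), discarded poorly mapped pairs in SAMtools (1.10) and duplicate pairs in Picard (2.12.0), split fragments by strand, defined TUs on pooled data and deposited raw fragment counts per TU with a feature table. TUs defined on pooled samples are common to all libraries. Deposited starts lie 1 base below the RefSeq start for 7265 of 14891 symbols, so printed TU starts may be 1 low. All count columns were mapped to samples.

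Counts were tested with edgeR (4.0.16, R 4.3.3) using TMM factors and the quasi-likelihood F-test in 1 fit of all 10 libraries, with 1 coefficient per group and Benjamini-Hochberg adjustment at 0.05; the biological coefficient of variation was 10%. Each SE was taken as the absolute log2 fold change divided by the square root of F, and was not estimated apart from the test. The script was tested on simulated data. CPM were scaled with the TMM factors, so a change shared by all TUs would not be seen. RefSeq sequence and annotation (GRCm38.p6) gave motifs and overlapping genes.

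The TUs described and the gene lists were chosen with earlier results of these data known. Named were all TUs that passed, Sox2, Klf2, Platr11, the lowest p within each gene list and, of TUs lower at 2 and 6 hpd, the 3 with a symbol and the lowest log2 fold change in each length class; other names were chosen after their values were seen, and 1 gene that this rule names is not reported here. Alternatives were DESeq2 (1.42.0), other factors and filters, fewer libraries and a replicate block. Fold changes rest on 2 libraries a group.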

Additional observations from a re-analysis of the deposited data

How the results depend on the processing

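With 28 TUs lower and 3 higher at 1 than at 0.5 hpd, the counts were 49 and 17 with DESeq2, 26 and 3 with RLE factors, 42 and 4 with total counts alone, 28 and 4 without a count filter, 23 and 5 with a mean of at least 50 fragments, and 48 and 14 in a fit of the 4 libraries compared. DESeq2 kept 26 of the 28 and all 3. With the replicate number as a block the counts were 187 and 57; the numbers were not shown to pair the samples (the differences between replicates at 0.5 and 1 hpd correlated at 0.193 over TUs, and those of all 10 pairs of groups at 0.0742 to 0.291, 8 of them over 0.1, with only 2 numbers), so this is given as a value only. Leaving out 1 library at a time gave 2 to 50 lower and 0 to 13 higher. The cause of these differences was not tested.

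The 28 stayed below 0 and the 3 above 0 in every setting that gave them a value. Of 872 values of named TUs under alternatives 709 stayed on their side of the threshold, 146 lost the call, 16 gained one and 1 reversed: Ctnnd2 was at 0.0209 without 0.5 hpd replicate 1, within a range of -0.339 to 0.0209 on leaving out 1 library. Of 221 medians of gene lists and of all TUs 42 moved by more than the spread between replicates. Those of the pluripotency, Platr, LIF, FGF and sterol lists kept their sign in each alternative (0.447 to 0.553 for the cholesterol synthesis enzymes, -0.246 to -0.101 for the pluripotency genes), while those of the Nodal and BMP (-0.241 to 0.0393), Wnt, NF-kB, heat shock, immediate early and housekeeping genes crossed 0. For the TUs lower at 2 and 6 hpd all 90 medians by length class stayed below 0. With TUs chosen at 6 hpd alone they were -0.28, -0.314, -0.238 and -0.237 from under 10 kb to 100 to 300 kb, and with TUs chosen anew among those with a mean of at least 50 fragments -0.38 and -0.336 in the 2 shortest classes. Leaving out 1 library gave -0.752 to -0.442 under 10 kb, -0.57 to -0.362 from 10 to 30 kb, -0.363 to -0.275 from 30 to 100 kb and -0.369 to -0.261 from 100 to 300 kb.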
